A study of Mus musculus with 10 samples.

Results

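The cytosolic ribosomal protein genes encode the proteins of the small (40S) and large (60S) ribosomal subunits. They were found by symbol: a probe set was taken when its only annotated symbol was Rpl or Rps followed by a number, or was Rplp0, Rplp1, Rplp2 or Rpsa, with S6 kinase symbols and Rps19bp1 set aside. This gave 101 of the 22690 probe sets, which belong to 49 of 12393 named genes. Of these genes, 20 encode 40S proteins, 22 encode 60S proteins, 6 are paralogs of a ribosomal protein gene and 1 is a pseudogene, Rps15a-ps6. A further 102 probe sets carry a ribosomal protein symbol together with other symbols and were left out, and so Rplp1, Rpl3 and Rpl5 are not described.

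The measurements came from 10 one-colour arrays of mouse kidney RNA. Contralateral kidneys came from mice in which the opposite kidney was clamped for 45 min, and they were removed 3 h after its reperfusion. Normal kidneys came from untreated mice. All mice were male C57/BLACK6, 7 weeks old, and all received 4-thiouridine (s4U, 200 µM) together with 3H-cytidine (34 µCi). Contralateral mice were injected 1 h and 2 h after reperfusion, and normal mice at 0 h and 1 h with removal at 2 h. The labels mention no sham-operated mice, and the kidney group cannot be told apart from surgery, anaesthesia and timing. Each kidney group had 2 arrays of total RNA, 2 arrays of linearly amplified total RNA and 1 array of newly transcribed RNA, which is the RNA that took up s4U in the living mouse.

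Mammalian cells make ribosomal proteins in near-equal amounts, and the mRNAs are among the most abundant and most stable of a cell. Most of these mRNAs begin with a 5′ terminal oligopyrimidine (TOP) tract, through which mTOR and Larp1 set their translation. Their level can therefore stay steady while protein output changes, and the RNA labelled during a short pulse reads synthesis more directly than total RNA does.

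Start-site sequences of member genes are shown for the comparison of the kidneys in newly transcribed RNA, where 42 of 46 tested genes lay higher on the contralateral array. RefSeq promoters (GRCm38.p6) were found for 42 of the 49 genes. The 4 genes highest in that contrast and the 4 lowest are given among those with 1 listed promoter, together with Rps27, the member called in total RNA. Each gene was ranked by its probe set of highest mean alone. Each line runs 5′ to 3′ on the coding strand and holds the 45 bases before the annotated start and the 25 from it on. Capitals mark a run of at least 8 pyrimidines within 10 bases of the start, or the hexamer CCGGAA or its reverse complement TTCCGG, the core that ETS-family factors such as GABP bind.
Rpl35 (chr2:39005107-39005176, minus strand): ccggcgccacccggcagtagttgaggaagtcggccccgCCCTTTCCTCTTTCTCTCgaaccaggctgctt
Rpl37a (chr1:72711215-72711284, plus strand): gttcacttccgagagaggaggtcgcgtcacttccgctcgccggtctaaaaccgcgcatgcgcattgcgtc
Rps15 (chr10:80292386-80292455, plus strand): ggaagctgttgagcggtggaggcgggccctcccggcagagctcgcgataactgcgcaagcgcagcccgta
Rps10 (chr17:27635220-27635289, minus strand): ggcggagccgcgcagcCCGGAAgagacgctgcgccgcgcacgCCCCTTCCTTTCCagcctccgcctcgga
Rps27 (chr3:90213624-90213693, minus strand): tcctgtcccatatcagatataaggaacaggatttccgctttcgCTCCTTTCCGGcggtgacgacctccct
Rps7 (chr12:28635929-28635998, minus strand): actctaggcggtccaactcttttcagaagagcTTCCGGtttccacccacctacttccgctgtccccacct
Rpl4 (chr9:64173342-64173411, plus strand): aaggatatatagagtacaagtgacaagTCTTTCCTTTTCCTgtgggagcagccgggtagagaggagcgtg
Rpl22l1 (chr3:28805463-28805532, plus strand): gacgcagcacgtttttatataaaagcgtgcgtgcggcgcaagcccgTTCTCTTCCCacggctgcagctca
Rps3a1 (chr3:86142644-86142713, minus strand): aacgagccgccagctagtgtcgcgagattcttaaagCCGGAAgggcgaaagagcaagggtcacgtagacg

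Both ends of the contrast held genes with and without the pyrimidine run. The run was found in 20 of 50 listed promoters of member genes (40%), against 14% of all 32851 RefSeq promoters. CCGGAA, searched on both strands from 250 bases before to 50 bases after the start, was in 28 of the 50 (56%), against 14.9% of all promoters. The GC box GGGCGG was in 26 of the 50 (52%), against 35.7%, and the YY1 core AAGATGG in 7 of the 50 (14%), against 6.34%, also on both strands. A match describes letters in this window and is not a shown binding site. The median difference on the newly transcribed arrays was 1.03 (log2) over the 20 tested genes with the run and 0.88 over the 20 without it. It was 1.00 over 27 genes with CCGGAA and 1.03 over 13 without.

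Values are log2(intensity + 11.8) after quantile normalization, so that each array has the same distribution. For dim probe sets the added 11.8 makes a log2 difference smaller than the true change. A probe set was tested when its mean lay above the 40th percentile of all probe sets (5.27), which left 13575 probe sets, among them 84 probe sets of 46 member genes. The paralogs Rpl39l and Rpl3l and the pseudogene Rps15a-ps6 had no tested probe set. Just below the cutoff lay an Rps9 probe set at 5.11 and an Rpl35 probe set at 5.22, and just above it the only tested probe sets of Rpl12 at 5.36 and Rpl14 at 5.53. A call means a Benjamini-Hochberg adjusted p under 0.05 from limma over all 13575 probe sets, and where a gene has several probe sets the one of highest mean stands for it. A ± value after a difference is limma's standard error.

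The arrays differed in brightness and in 3′ bias. In newly transcribed RNA the median deposited intensity was 18.6 for the contralateral array against 70.3 for the normal array, and the other 8 arrays lay between 26.6 and 59.7. The Gapdh 3′/5′ ratio, high where RNA is truncated or copied from its 3′ end, was 4.21 to 6.23 in amplified and 0.938 to 1.12 in unamplified total RNA, and is given for newly transcribed RNA beside its results. All 7 proximal tubule markers and all 5 of the thick limb and distal tubule passed the filter, and so did 5 of 9 leukocyte markers. In bulk tissue, fewer cells of a type and less RNA per cell cannot be told apart.

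In total RNA the ribosomal protein genes held nearly the same level in contralateral and in normal kidneys. The median of the 46 genes was 10.89 and 10.88 on the 2 contralateral arrays, against 10.88 and 10.95 on the 2 normal arrays. Member probe sets made up 3.09% and 3.19% of the summed deposited intensity of the contralateral arrays, against 3.10% and 3.02% of the normal ones. The median difference over the 84 probe sets was 0.01 (log2), and over all tested probe sets -0.01. No member was called higher and 1 of 84 was called lower, where 1.58% of all probe sets were called higher and 0.331% lower.

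**Figure D1:**
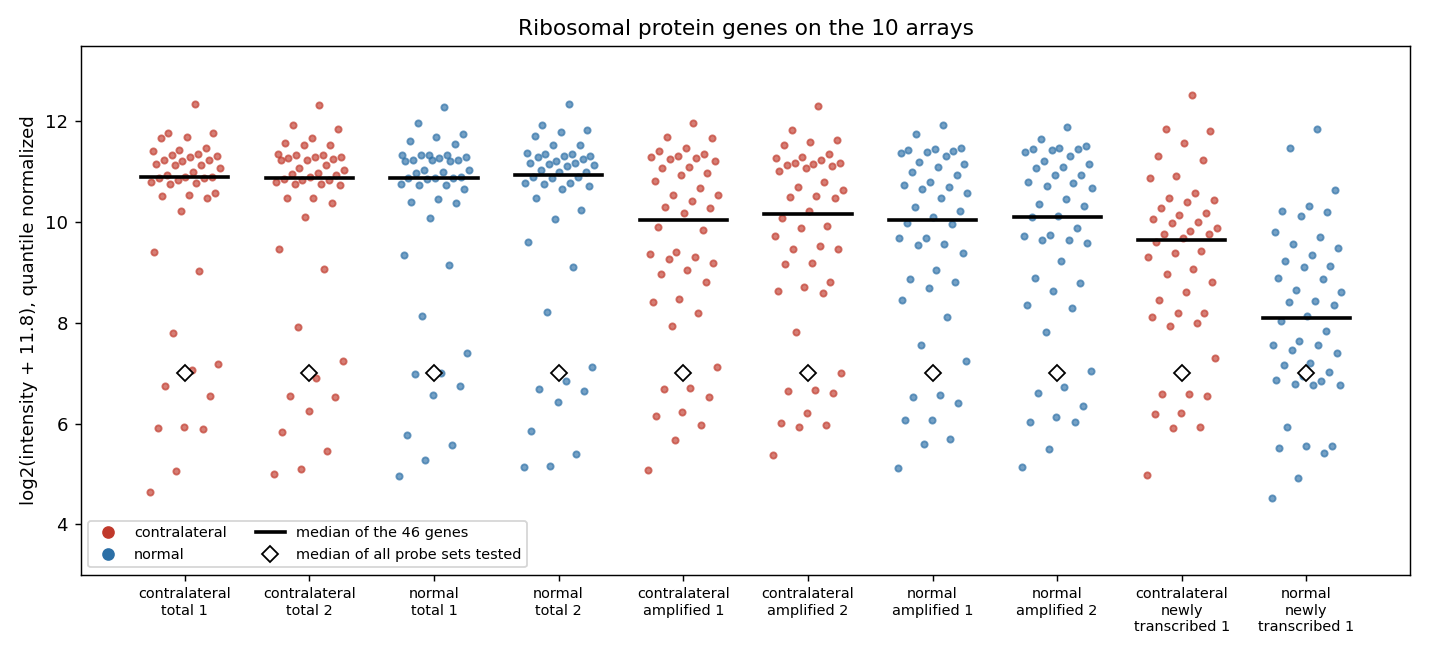
Normalized log2 level (y axis) of the 46 tested ribosomal protein genes (dots) on each of the 10 arrays, red for contralateral and blue for normal kidneys. Black bars are the medians of the 46 genes, which lie between 10.88 and 10.95 in total RNA and at 9.65 and 8.09 on the contralateral and normal newly transcribed arrays, and open diamonds are the medians of all tested probe sets.

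The intervals bound the size of the differences. For 83 of 84 member probe sets the 95% confidence interval of the difference lay inside a 2-fold change either way, and for 75 (89.3%) inside a 1.5-fold change. Of all tested probe sets, 92.8% lay inside the 2-fold and 56.6% inside the 1.5-fold bounds. The median half-width of the interval was 0.27 (log2) over the members and 0.37 over all probe sets. Replicate arrays lay close together for the members, with a median absolute difference of 0.09 between the contralateral replicates and 0.09 between the normal ones, against 0.16 and 0.15 over all probe sets. The member probe sets were brighter, with medians of 10.68 to 10.74 on the total RNA arrays, against 7.01 over all tested probe sets. Limma's spread follows intensity, and these shares and widths were not matched for brightness.

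Rps27, a zinc-finger protein of the 40S subunit, was the member called in total RNA. Its deposited intensity was 46.8 and 30.9 on the contralateral arrays, against 145.0 and 113.9 on the normal arrays. After normalization it stood at 5.94 and 5.46 (log2) in contralateral kidneys and at 7.01 and 6.64 in normal kidneys, and the groups did not overlap, as for 24.2% of all probe sets in that direction. It fell by 1.13 ± 0.24 (limma, adjusted p = 0.0387). The call was kept under 4 of 14 other settings, with differences from -1.38 to -0.89, and was lost without either contralateral array of total RNA and without any 1 of the 4 normal arrays of total and amplified RNA (adjusted p from 0.0504 to 0.188). In amplified total RNA the same probe set read 6.16 and 6.0 in contralateral kidneys and 5.59 and 6.13 in normal kidneys, which overlap, with a difference of 0.22. Its single probe set, 1460699_at, is the only one on the array with that symbol alone.

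Rps27l, a paralog of Rps27 whose human counterpart is a p53 target, lay at 10.79 and 10.74 in contralateral total RNA and at 10.99 and 10.99 in normal total RNA. Its difference of -0.23 ± 0.10 did not pass (limma, adjusted p = 0.345). The others with the smallest p were Rpl27a, at 0.49 ± 0.20 (adjusted p = 0.291), and Rpl37, at -0.31 ± 0.14 (adjusted p = 0.346), and they did not pass either. Rpl11, which with Rpl5 binds Mdm2 when ribosome assembly is disturbed, differed by 0.09, and Rps6, the phosphorylation target of S6 kinase, by 0.24. Rps19, mutated in Diamond-Blackfan anaemia, differed by 0.10, and the laminin-receptor-type 40S protein Rpsa by 0.03. The stalk proteins Rplp0 and Rplp2, which recruit translation factors, differed by 0.02 and 0.03. Rpl22, which also binds small viral and cellular RNAs, differed by -0.04 and its paralog Rpl22l1 by -0.07. None of these passed.

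In amplified total RNA the members also lay near 1 level in both kidneys. The median of the 46 genes was 10.04 and 10.15 on the contralateral arrays, against 10.05 and 10.11 on the normal arrays, and the median difference over the 84 probe sets was -0.03. Of the 84, 2 were called higher and 2 lower, where 4.1% of all probe sets were called higher and 6.22% lower. At gene level no member passed. By unadjusted p, 4 of the 46 genes and 13 of the 84 probe sets lay under 0.05, as did 25% of all probe sets. The smallest p belonged to Rpl10a at 0.28 ± 0.10 (limma, adjusted p = 0.0933), Rps20 at -0.25 ± 0.10 (adjusted p = 0.157), Rps3 at 0.18 ± 0.08 (adjusted p = 0.178) and Rpl41 at 0.22 ± 0.10 (adjusted p = 0.190). Rps6 differed by 0.19, Rps19 by 0.10, Rpsa by 0.06, Rpl22 by 0.20 and Rpl22l1 by 0.13, and Rpl11 by -0.13, Rplp2 by -0.10, Rplp0 by -0.04 and Rps27l by -0.04, none of them past the threshold. The 95% interval lay inside 2-fold for 82 of the 84 probe sets and inside 1.5-fold for 70 (83.3%), against 88.8% and 48.8% of all probe sets. These shares were not matched for brightness either.

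For all 4 called probe sets another probe set represents the gene, and that one was not called. Rpl37a, a 60S zinc-finger protein, read 8.80 and 8.53 on probe set 1416217_a_at in contralateral kidneys, against 7.81 and 7.89 in normal kidneys. The groups did not overlap, as for 29.5% of all probe sets in that direction, and it rose by 0.82 (limma, adjusted p = 0.00143), a call kept under all 14 other settings. Its representative probe set, 1460543_x_at, read 10.18 and 9.89 in contralateral kidneys, against 9.95 and 9.88 in normal kidneys, and did not pass at 0.12. Rpl13a, a 60S protein that in human monocytes also silences inflammatory mRNAs once released from the ribosome, read 10.11 and 10.22 on 1417608_a_at in contralateral kidneys, against 9.71 and 9.76 in normal kidneys. It rose by 0.43 (limma, adjusted p = 0.0127), while its representative probe set gave -0.04, and the call was kept under 10 of 14 other settings. It was lost without either normal amplified array (adjusted p = 0.108 and 0.0785), with median scaling (adjusted p = 0.0768) and in the 4 arrays of that preparation alone (adjusted p = 0.0570).

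Rpl35, which sits at the exit of the peptide tunnel, fell by 0.46 on 1436840_x_at (limma, adjusted p = 0.0447), and its representative probe set gave -0.09. Rps24 fell by 0.56 on 1453362_x_at (adjusted p = 0.0430), where its representative probe set gave 0.22. The Rpl35 call was kept under 4 of 14 other settings and, of the 8 fits with 1 array left out, only in that without normal amplified array 2 (adjusted p up to 0.329 in the others). The Rps24 call was kept under 6 of 14, and was lost without contralateral amplified array 1 and without any 1 of the 4 normal arrays of total and amplified RNA (adjusted p from 0.0621 to 0.196). Probe sets of 1 gene often disagreed in sign where differences were this small: of the 19 genes with at least 2 tested probe sets, the signs differed for 13 in total RNA and for 11 in amplified total RNA.

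In newly transcribed RNA most members stood higher on the contralateral array than on the normal one. With 1 array a group there is no test, and the values describe these arrays. The median of the 46 genes was 9.65 on the contralateral array and 8.09 on the normal array, while the median of all tested probe sets was 7.00 and 7.01. Of the 84 probe sets, 77 lay higher on the contralateral array, 49 of them at least 2-fold and 0 at least 2-fold lower, where 14.4% of all probe sets were at least 2-fold higher and 18.5% at least 2-fold lower. The median difference was 1.10 (log2) over the 84 and 0.00 over all. With arrays scaled to 1 median in place of quantile normalization, the median over all probe sets shifted to -0.20, and 69 of the 84 lay higher, 40 of them at least 2-fold and 4 at least 2-fold lower. By gene, 24 of 46 were at least 2-fold higher, 11 of 20 in the 40S, 12 of 22 in the 60S and 1 of 4 paralogs, with medians of 1.10, 1.01 and 0.72.

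**Figure D2:**
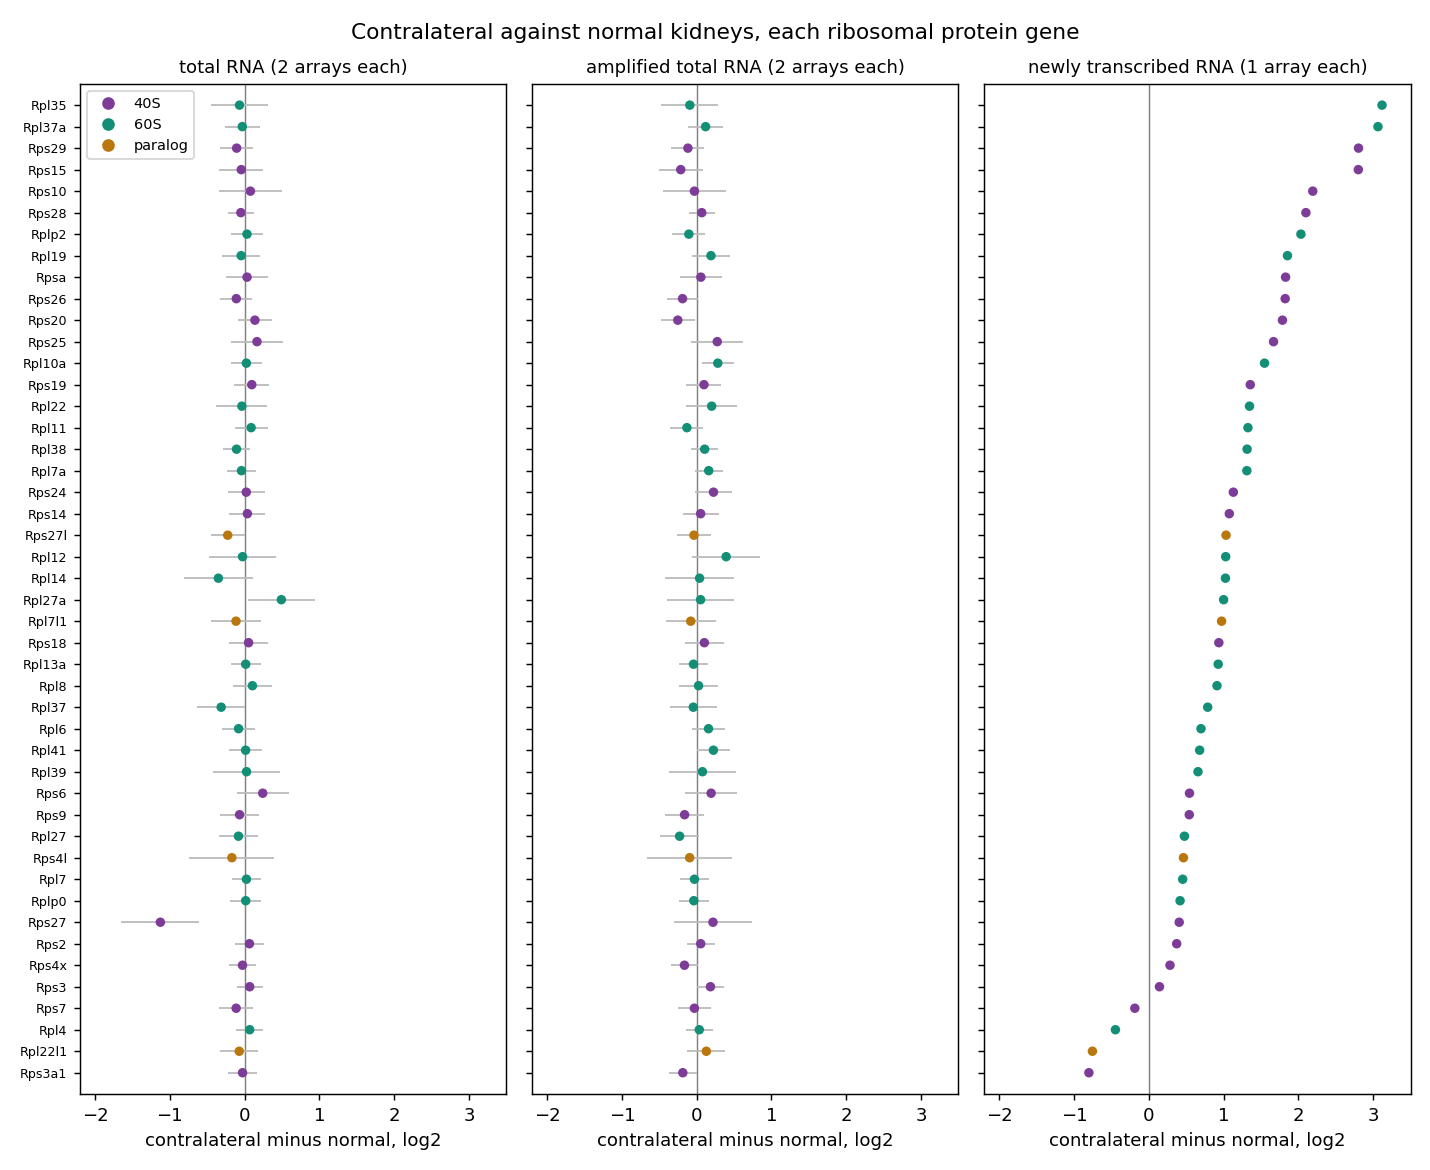
Contralateral minus normal (x axis, log2) for each of the 46 tested ribosomal protein genes, ordered by the newly transcribed difference, from left to right in unamplified, amplified and newly transcribed RNA. Lines are 95% confidence intervals where there are 2 arrays a group, the newly transcribed panel has none, and 42 of its 46 dots lie right of 0, from -0.80 for Rps3a1 to 3.12 for Rpl35.

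Rpl35 differed most. It read 10.58 in contralateral kidneys and 7.46 in normal kidneys, a difference of 3.12. Rpl37a read 10.27 and 7.21 in the same order, a difference of 3.06, but its 3 probe sets ran from 0.28 to 3.06. Rps15, which lies near the decoding site, read 9.83 on the contralateral array and 7.03 on the normal one (2.80), and Rps29, a small zinc-binding 40S protein, 11.23 and 8.42 (2.80). The next were Rps10 at 2.19, Rps28 at 2.10, Rplp2 at 2.03 and Rpl19 at 1.85. Of a fixed set of genes, Rpsa differed by 1.83, Rps19 by 1.36, Rpl22 by 1.35, Rpl11 by 1.33, Rps27l by 1.03, Rps6 by 0.54, Rplp0 by 0.42 and Rps27 by 0.41. Under the median scaling Rplp0, Rpl27 and Rps9 changed sign.

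Lower on the contralateral array were 4 genes. Rps3a1, a 40S protein, read 9.42 on the contralateral array and 10.22 on the normal one (-0.80). Rpl22l1, the paralog of Rpl22 that can replace it in the 60S subunit, read 6.19 and 6.94 in the same order (-0.75). Rpl4, part of the tunnel wall, differed by -0.45 and Rps7 by -0.19. Rpl22 itself disagreed between its probe sets, with 1.35 on 1416603_at and -0.91 on 1448398_s_at. Signs differed in 4 of the 19 genes with several tested probe sets.

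Deposited intensities were compared as well. The contralateral newly transcribed array was the dimmest of the 10, and 4.21% of all tested probe sets were brighter on it than on the normal one. Among the members, 26 of 84 probe sets were, or 31.0%, and by gene 9 of 46, or 19.6%. Rpl35 had a deposited intensity of 789.1 on the contralateral array, against 300.2 on the normal one, and Rps29 had 1389.5 on the contralateral array, against 584.1 on the normal one. Rps3a1 had 295.7 on the contralateral array, against 1694.8 on the normal one. Member probe sets made up 2.24% of the summed intensity of the contralateral array and 0.806% of the normal one.

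The arrays that carried this difference also differed in 3′ bias, in brightness and in other genes. The Gapdh 3′/5′ ratio was 68.9 for the contralateral array against 12.7 for the normal array, and the Actb ratio 24.8 for the contralateral array against 12.7 for the normal one. The 5 leukocyte markers tested had a median normalized difference of 0.56, with 1 at least 2-fold higher, where 14.4% of all probe sets were. The summed deposited intensity of all 9 was 251.3 on the contralateral array, the dimmer one, against 627.8 on the normal array. Of 9 adipose, adrenal and muscle markers named, 6 were on the array and 3 were tested. These 3 (Fabp4, Adipoq and Star) were at least 2-fold higher on the contralateral array, with a median of 1.79. Of 7 proximal tubule markers 0 were 2-fold higher and 1 lower (median -0.36). The thick limb and distal tubule had 0 of 5 higher (-0.21), the collecting duct 0 of 3 (0.74) and podocytes 0 of 2 (-0.01). The part of these differences in the result was not tested.

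Over all preparations together the members' median difference was 0.25 (log2), against -0.00 over all probe sets, and 0 of 84 were called in either direction, where 0.383% of all probe sets were called higher and 0.0589% lower. At an unadjusted p under 0.05 in limma's fit there were 4 of the 84 probe sets and 2 of the 46 genes (Rpl27a and Rps25), where 14.6% of all probe sets were. The smallest p among the genes belonged to Rpl27a at 0.42 ± 0.18 (adjusted p = 0.321), Rps25 at 0.51 ± 0.22 (adjusted p = 0.323), Rps6 at 0.28 ± 0.13 (adjusted p = 0.349) and Rpl10a at 0.43 ± 0.20 (adjusted p = 0.349), none of which passed. Rpsa differed by 0.40, Rplp2 by 0.38, Rps19 by 0.35, Rpl22 by 0.34, Rpl11 by 0.25, Rps27l by 0.10 and Rplp0 by 0.075, a sign that changed under median scaling, and Rps27 by -0.28 and Rpl22l1 by -0.13. Without the newly transcribed arrays the median was -0.00.

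Newly transcribed RNA was next set against amplified total RNA within each kidney, to ask whether the members stand high or low in the labelled fraction. The 2 preparations also differed in Gapdh 3′/5′ ratio. It was 68.9 on the contralateral and 12.7 on the normal newly transcribed array, against 4.21 to 6.23 in amplified total RNA. The part of this in the differences was not tested. With 1 newly transcribed array a kidney, the spread of that group was not measured, so differences are given without an error. In contralateral kidneys 8 of the 84 probe sets were at least 2-fold higher and 17 at least 2-fold lower, with a median of -0.19, where 11.1% of all probe sets were higher and 15.9% lower by that much. In normal kidneys 1 was at least 2-fold higher and 65 at least 2-fold lower, with a median of -1.65, where 8.85% of all were higher and 9.67% lower. Calls by limma borrow their spread from the groups with 2 arrays and assume that the newly transcribed array varies like those. Under that assumption 24 were called higher and 37 lower in contralateral kidneys (24.2% and 29.3% of all probe sets), and 3 higher and 70 lower in normal kidneys (20.8% and 22.6%). The median over all probe sets was -0.02 in contralateral and -0.03 in normal kidneys. Under median scaling it shifted to -0.22 in contralateral kidneys, where members with a positive difference numbered 28, against 36 with quantile normalization. Under the same assumption 35 members were called lower in both kidneys, 1 higher in both, and 19 higher in contralateral and lower in normal kidneys, where 12.2%, 7.63% and 2.87% of all probe sets had these patterns.

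**Figure D3:**
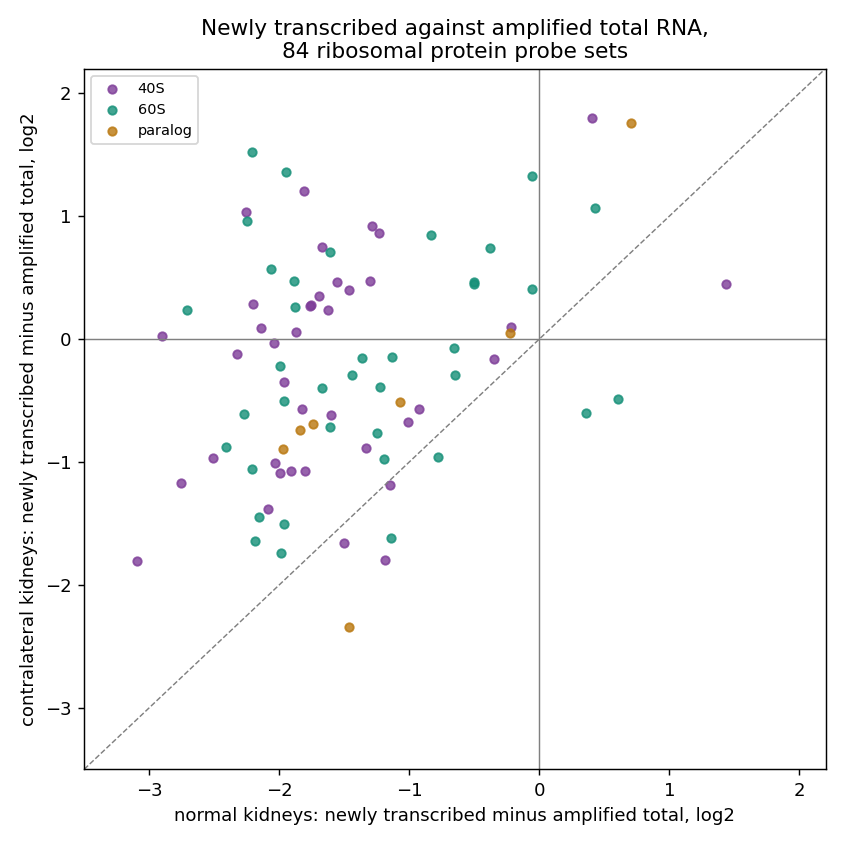
Newly transcribed minus amplified total RNA (log2) for the 84 tested ribosomal protein probe sets, in contralateral (y axis) and normal (x axis) kidneys, coloured by subunit. The dashed line marks equal values, and most points lie above it and left of 0, with medians of -0.19 in contralateral and -1.65 in normal kidneys.

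Furthest below amplified total RNA in contralateral kidneys were Rpl22l1 at -2.35, Rps3a1 at -1.80, Rps7 at -1.66, Rpl6 at -1.65, Rpl4 at -1.62, Rplp0 at -1.51, Rpl27 at -1.45 and Rps9 at -1.38. Furthest above it there, among those called, were Rps25 by 1.80, Rpl7l1 by 1.76, Rps15 by 1.21, Rpl12 by 1.06, Rpl35 by 0.96, Rpsa by 0.47, Rpl13a by 0.46 and Rpl41 by 0.40. Rpl7l1, a paralog of Rpl7 that acts in ribosome assembly, differed by 0.71 in normal kidneys, the 1 member gene called higher there. It read 8.82 on the contralateral newly transcribed array, against 7.12 and 7.00 in contralateral amplified total RNA, and 7.85 on the normal one, against 7.24 and 7.04 in normal amplified total RNA. Its other probe set gave 0.05 in contralateral and -0.23 in normal kidneys. In contralateral kidneys signs differed in 10 of the 19 genes with several tested probe sets. Other probe sets there ran down to -0.35 for Rps15, -0.22 for Rpl35, -0.96 for Rpl13a and -0.60 for Rpl41. They ran up to 0.71 for Rpl27 and 0.86 for Rps9.

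In normal kidneys the genes furthest below were Rps29 at -2.90, Rpl37a at -2.71, Rpl19 at -2.27, Rpl35 at -2.25, Rpl7a at -2.21, Rpl6 at -2.19, Rpl27 at -2.15 and Rps10 at -2.14. The 3 probe sets of Rpl37a ran from -2.71 to -0.65 there. Rps29 read 8.42 on the normal newly transcribed array, against 11.20 and 11.44 in normal amplified total RNA. Rpl35 read 7.46 on that array, against 9.68 and 9.74 in normal amplified total RNA. In contralateral kidneys Rps29 read 11.23 against 11.26 and 11.15 in amplified total RNA, a difference of 0.02 that changed sign under median scaling. Of the fixed set, Rpl11 differed by -0.50 in contralateral and -1.96 in normal kidneys, Rps19 by -0.57 and -1.83, Rps6 by -0.57 and -0.92, and Rps27l by -0.90 and -1.97. Rplp2 differed by 0.26 in contralateral and -1.88 in normal kidneys, Rpl22 by -0.30 and -1.44, and Rps27 by -0.16 and -0.35. The other Rpl22 probe set gave -0.49 in contralateral and 0.61 in normal kidneys. In normal kidneys Rplp0 differed by -1.97, Rpl22l1 by -1.46 and Rpsa by -1.30.

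Many members differed between amplified and unamplified total RNA. Against unamplified total RNA, amplified total RNA had 7 of the 84 probe sets higher and 49 lower in contralateral kidneys, where 27.3% of all probe sets were higher and 22.6% lower. In normal kidneys 9 were higher and 50 lower, where 27% of all were higher and 23% lower. Medians were -0.53 in contralateral and -0.58 in normal kidneys, against 0.07 and 0.03 over all probe sets. Under median scaling all probe sets shifted to medians of 0.21 and 0.16, and members with a positive difference numbered 31 in contralateral and 31 in normal kidneys, against 18 and 17 with quantile normalization. The 2 kidneys share no array here, and their differences ran together across the 84 probe sets (r = 0.94, and 0.79 over all tested probe sets, a description across probe sets that share sequences and genes). Of the 84, 46 were lower in both, 7 higher in both and 0 called in opposite directions, against 16.1%, 19.9% and 0.832% of all probe sets.

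**Figure D4:**
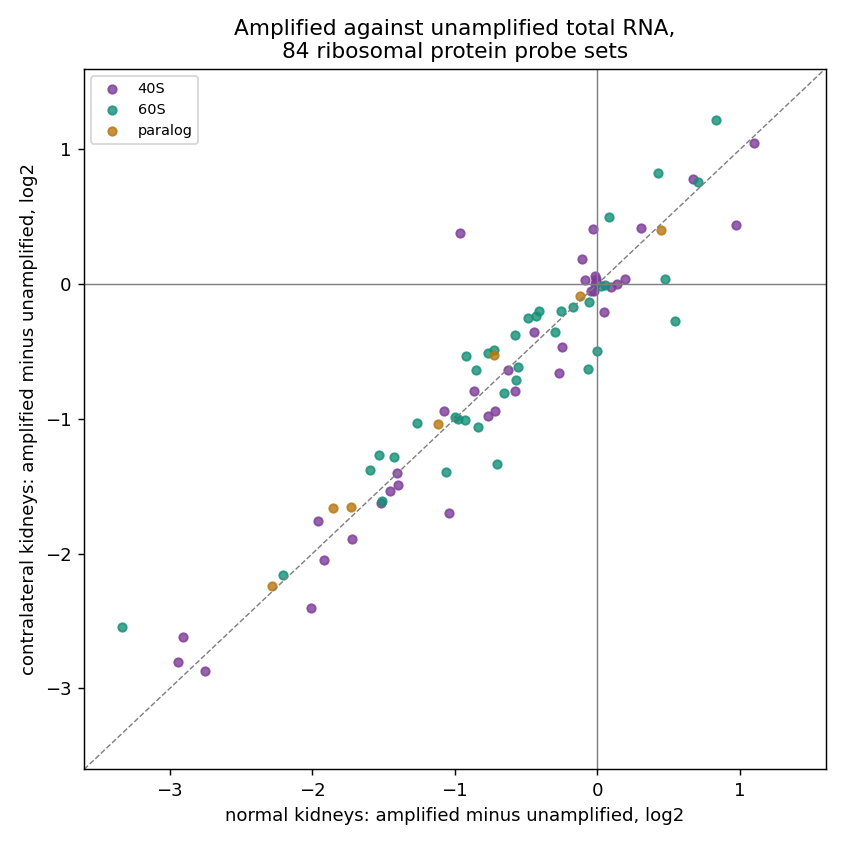
Amplified minus unamplified total RNA (log2) for the 84 tested ribosomal protein probe sets in contralateral (y axis) and normal (x axis) kidneys, coloured by subunit, with the line of equal values dashed. Points follow the line, and 46 probe sets were called lower in both kidneys.

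In contralateral kidneys the largest falls were Rps15 at -1.89 ± 0.13, Rps24 at -1.76 ± 0.11, Rps27l at -1.66 ± 0.10, Rps10 at -1.62 ± 0.19, Rps26 at -1.53 ± 0.10, Rps9 at -1.49 ± 0.12, Rps19 at -1.40 ± 0.11 and Rpl37a at -1.28 ± 0.11. In normal kidneys the largest falls were Rps24 at -1.96 ± 0.11, Rps27l at -1.85 ± 0.10, Rps15 at -1.72 ± 0.13, Rpl37 at -1.53 ± 0.14, Rps10 at -1.51 ± 0.19, Rps26 at -1.46 ± 0.10, Rpl37a at -1.43 ± 0.11 and Rps19 at -1.40 ± 0.11. Rps27l read 9.04 and 9.16 in contralateral amplified RNA, against 10.79 and 10.74 unamplified. In both kidneys Rps6, Rpl14, Rps25 and Rps3 rose, at 1.05, 1.22, 0.78 and 0.42 in contralateral and 1.10, 0.83, 0.67 and 0.30 in normal kidneys. Of the fixed set, Rpl11 fell, at -1.06 in contralateral and -0.84 in normal kidneys, and so did Rpl22 (-1.03 and -1.27), Rpl22l1 (-0.52 and -0.72), Rplp0 (-0.61 and -0.56) and Rplp2 (-0.71 and -0.57). Rps27 differed by 0.38 in contralateral kidneys, where it did not pass, and fell in normal kidneys, at -0.96. Rpsa, at 0.014 and -0.0091, passed in neither. For Rps6, amplified contralateral arrays read 7.93 and 7.82, against 6.75 and 6.91 unamplified. For 8 of the 19 genes with several tested probe sets the sign differed between them, in either kidney. Among the falls named here, another Rpl22 probe set rose, at 0.83 in contralateral and 0.42 in normal kidneys. Another Rps9 probe set gave 0.44 and 0.97 in the same order. Rps24 probe sets ran from -2.80 to 0.41 in contralateral kidneys and from -2.94 to -0.03 in normal kidneys.

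The contralateral effect was then compared between amplified and unamplified total RNA. Of the 84 probe sets, 2 had a higher effect in amplified RNA and 1 a lower one, where 0.641% of all probe sets were higher and 3.82% lower. Rps27 differed by 1.34 ± 0.33 (limma, adjusted p = 0.0466), Rpl37a on 1416217_a_at by 0.79 (adjusted p = 0.0201) and Rpl27 on 1448217_a_at by -0.82 (adjusted p = 0.0279). The Rpl27 probe set read 8.23 and 8.33 in contralateral total RNA, against 7.79 and 7.68 in normal total RNA, and 7.92 and 8.09 in contralateral amplified RNA, against 8.19 and 8.37 in normal amplified RNA. The other 9 genes of the fixed set lay between -0.22 (Rpl11) and 0.24 (Rpl22), and none passed. For the Rpl27 probe set the order of the kidneys on these arrays was thus turned round between the preparations. Its kidney difference was called in neither preparation by itself, and the difference between them was called in 5 of 13 other settings.

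**Figure D5:**
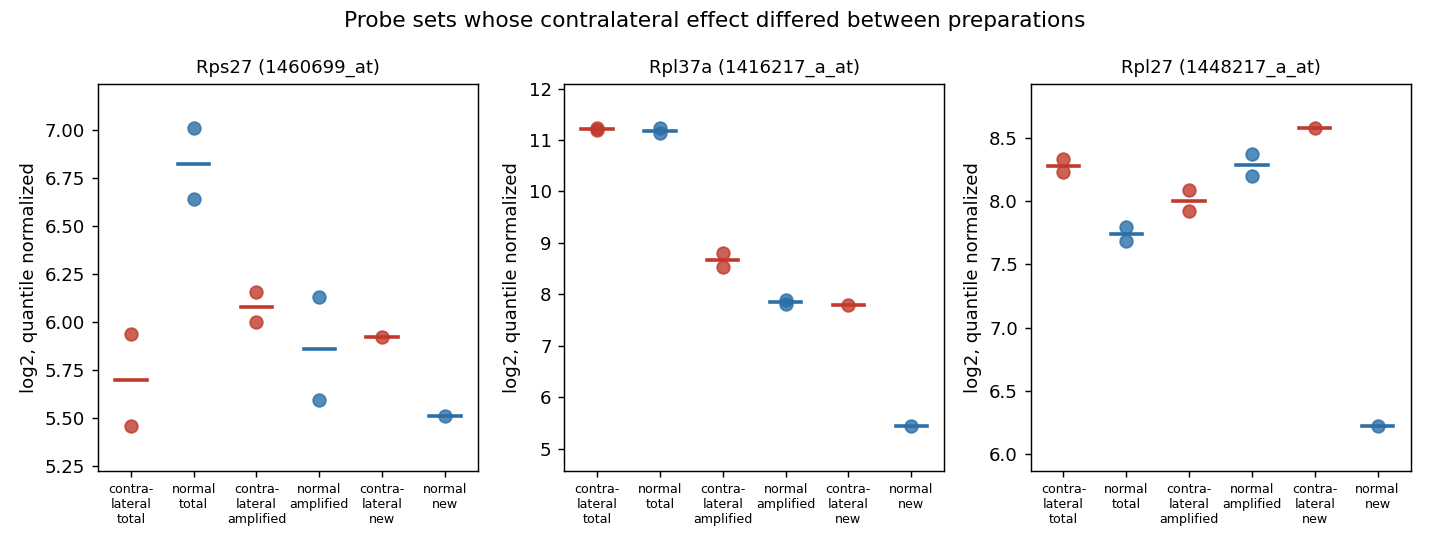
Normalized log2 level (y axis) on each array of the 3 probe sets whose contralateral effect differed between amplified and unamplified total RNA, with contralateral arrays in red, normal arrays in blue and bars at the group means. Rps27 is low in contralateral total RNA (5.94 and 5.46, against 7.01 and 6.64 in normal total RNA), and Rpl37a is high in contralateral amplified RNA (8.80 and 8.53, against 7.81 and 7.89 in normal amplified RNA).

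The members were also grouped by position in the ribosome and by disease. Of the 4 tested stalk and 5S particle genes, 3 were at least 2-fold higher on the contralateral newly transcribed array, of 4 exit tunnel genes 2, of 5 decoding-site genes 3 and of 11 genes mutated in Diamond-Blackfan anaemia 8, with medians of 1.18, 1.26, 1.82 and 1.36. All member genes had 24 of 46 (52.2%) and a median of 1.01, and all probe sets 14.4%. In total RNA these lists held 0 calls except for Rps27, and in amplified total RNA 0 by their representative probe sets. By probe type, 25 of 38 tested probe sets ending in _x_at, which can bind related sequences and processed pseudogenes, were at least 2-fold higher on the contralateral newly transcribed array, and so were 8 of 17 ending in plain _at.

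Other gene lists were set beside the members. A list of genes with TOP mRNAs, called TOP factors here, held mostly translation factors but also other genes, among them Tpt1, Hnrnpa1, Nap1l1 and Vim. Of its 17 tested genes, 1 was at least 2-fold higher and 7 at least 2-fold lower on the contralateral newly transcribed array, with a median of -0.32. Of 49 ribosome biogenesis factors, 7 were higher and 8 lower, with a median of -0.04. Of 74 mitochondrial ribosomal protein genes, 13 were higher and 7 lower, with a median of 0.38. Shares of the biogenesis factors were 14.3% and 16.3%, and of the mitochondrial genes 17.6% and 9.46%, beside 14.4% and 18.5% of all probe sets. In normal kidneys, newly transcribed against amplified total RNA, 54 of the 74 mitochondrial genes were called lower and 0 higher, and of the TOP factors 9 were lower and 5 higher, with the spread borrowed as above and beside 22.6% of all probe sets lower and 20.8% higher. In total RNA 0 of the TOP factors, biogenesis factors and mitochondrial genes were called by limma. At an unadjusted p under 0.05 in that fit were 2 of the 17, 5 of the 49 and 9 of the 74, beside 14.8% of all probe sets. Of 13 tested regulators of ribosomal protein genes and mRNAs, 1 was called higher in total RNA (Sp1, 0.90), beside 1.58% of all probe sets. The 13 ran from -0.20 to 1.09 there, so the largest difference was not called. In amplified total RNA 2 were called higher (Mtor, 0.62, and Yy1, 0.48), beside 4.1%. On the newly transcribed arrays the 13 ran from -2.32 to 1.48. There 3 were at least 2-fold higher, among them Mtor at 1.42, beside 14.4% of all probe sets. Another 4 were at least 2-fold lower, among them Gabpa at -1.75 and Sp1 at -1.77, beside 18.5%. Fau, the gene of the 40S protein eS30 fused to a ubiquitin-like protein, whose symbol lies outside the rule, rose by 0.43 in amplified total RNA and differed by 2.00 on the newly transcribed arrays. In amplified total RNA the TOP factors held 1 rise (Eif3h, 0.40) and 1 fall (Eif3a, -0.53), and 4 mitochondrial genes rose. There 3 of 49 biogenesis factors were called higher (Utp20, Eif6 and Sbds) and 1 lower (Ubtf), or 6.12% and 2.04%, beside 4.1% and 6.22% of all probe sets.

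Across the 10 arrays the probe sets most like the mean of the 46 genes were those of Uqcr11 (r = 0.997), Cox6b1 (0.995) and Uqcrq (0.994), subunits of respiratory chain complexes, then Psme1 (0.992) and Ube2a (0.992), of 12418 probe sets compared. The arrays fall into 3 preparations that differ widely, and the values describe likeness over these arrays only.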

How the data were processed

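Signal intensity per probe set and array was deposited by the authors on a linear scale, 1 value for each of 22690 probe sets. How the values were summarised or scaled, and any detection calls, is not given in the sources used here. Symbols came from the platform annotation (20380 probe sets with 1 symbol). The members, gene lists and tests were chosen with earlier results of these data known.

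The pseudocount of 11.8 is the 25th percentile of all values. The 64 control probe sets were left out before quantile normalization. Each fit (limma 3.58.1 under R 4.3.3, moderated along the intensity trend) took all 10 arrays, either as 6 group means (4 residual degrees of freedom) or, over all preparations, as kidney plus preparation (6). P-values measure the spread between arrays that the titles call biological replicates. The titles do not say whether arrays of different preparations came from the same mice, and the fits treat all 10 as independent. Named genes were, per comparison, the 8 largest changes in each direction among those called, or those with the smallest p up to 4, with a fixed set also named (Rps6, Rps19, Rps27, Rps27l, Rpsa, Rpl11, Rpl22, Rpl22l1, Rplp0 and Rplp2). Same-numbered arrays did not deviate together (correlations from -0.07 to 0.10), so the numbers were not used as pairs. Alternatives were the pseudocount, scaling, filter, robust moderation, a replicate block, fewer arrays and fewer probe sets. Promoters and names came from RefSeq tables (GRCm38.p6).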

Additional observations from a re-analysis of the deposited data

Results flagged for a closer look

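For 3 probe sets the contralateral effect in amplified total RNA differed from that in unamplified total RNA by a test of the difference itself (limma, 2 arrays a group). Rpl27 (1448217_a_at) had a difference of -0.82 and was called in 5 of 13 other settings. Rpl37a (1416217_a_at) had 0.79 and was called in 7 of 13. Rps27 (1460699_at) had 1.34 and was called in 2 of 13. Of the 8 fits with 1 array left out, Rpl37a was called in the 2 without a contralateral amplified array, Rpl27 in that without contralateral amplified array 2 and Rps27 in that without contralateral total array 1. None of the 3 changed sign in these settings. The representative probe sets of Rpl27 and Rpl37a gave -0.15 and 0.15 for the same difference, neither of them called. The cause was not tested.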

How the results depend on the processing

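The members' median over all preparations rested on the newly transcribed arrays: it was 0.25, from 0.26 to 0.30 with another array left out, and without both of them -0.00397, without the contralateral one -0.00389 and without the normal one -0.00382 (leaving out 1 of them was added after seeing the data). Members called in total RNA were 1.19% of those tested, and 0% with a pseudocount of 1, with median scaling, with no filter on dim probe sets or in the 4 arrays of that preparation alone. They were 2.17% with 1 probe set per gene and 2.27% without _x_at and _s_at probe sets, and from 0% to 2.38% with 1 array left out. In amplified total RNA 4.76% were called, and 0% with 1 probe set per gene, 1.19% with median scaling or in the 4 arrays alone, 1.98% with no filter, and from 1.19% to 9.52% with 1 array left out. The difference between these effects was called in 3.57%, and in 2.17% with 1 probe set per gene, 1.19% with median scaling, 1.98% with no filter, 6.82% without _x_at and _s_at probe sets, and from 0% to 3.57% with 1 array left out.

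On the newly transcribed arrays the median of 1.10 was 1.01 with 1 probe set per gene, 0.95 with median scaling, 0.97 with no filter and 1.22 with a pseudocount of 1. The share at least 2-fold lower, 0%, was 4.76% with median scaling, 0.990% with no filter and 1.19% with a pseudocount of 1. For newly transcribed against amplified total RNA in contralateral kidneys the median of -0.19 was -0.40 with 1 probe set per gene, -0.45 with median scaling and -0.38 without _x_at and _s_at probe sets. It ran from -0.27 to -0.095 with 1 array left out, its upper end without contralateral amplified array 2. The share called higher with borrowed spread, 28.6%, was 17.9% with median scaling, where Rps20 turned from a call to -0.025. In normal kidneys the median of -1.65 was -1.55 with 1 probe set per gene and -1.44 with no filter, and the share higher, 3.57%, was 2.17% with 1 probe set per gene. For amplified against unamplified RNA in contralateral kidneys the median of -0.53 was -0.36 with 1 probe set per gene, -0.31 with median scaling, -0.28 with no filter and -0.33 without _x_at and _s_at probe sets. In normal kidneys -0.58 was -0.37 with median scaling and -0.40 with no filter, and the share higher, 10.7%, ran down to 5.95% without normal amplified array 2.

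Of 325 recomputed medians and shares, 266 moved by less than 0.088 (log2), the SD of the member median between replicates, or, for shares, by no more than 1.5 times. Another 56 moved by more, and 3 changed sign, the medians over all preparations without 1 or both newly transcribed arrays, which are nearly the same fit. With the replicate block, which rests on numbers that did not pair the arrays, Rps27 stayed called in total RNA (-1.13, adjusted p = 0.0405) and its difference between preparations did not (1.34, adjusted p = 0.0518). No detection calls were used, so the lowest signals have no known floor. With 1 newly transcribed array a kidney, the largest differences have no replicate check.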
